A study of Mus musculus with 12 samples.

Results

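Neuropeptide signalling in wounds was followed through 8 genes of the 24062 counted in each library: the peptide precursors Tac1 and Calca, the receptors and receptor subunit Tacr1, Calcrl, Ramp1, Npy1r and Crhr1, and the peptide-degrading enzyme Mme. The 8 were taken as a named list, by gene symbol and with no threshold on their levels, and all 8 symbols were found in every library. RNA was sequenced from dorsal skin wounds of C57BL/6 mice, with 1 library per mouse and 12 libraries in all. Every mouse had diabetes induced with streptozotocin, a toxin of pancreatic beta cells, so no non-diabetic mouse is in the comparison. There were 4 groups of 3 mice, labelled pre-MCS-01, post-MCS-01 and DSCG, and blank. MCS-01 is named as a mast cell stabilizer, a compound that restrains the release of mast cell granules, and is known here by its code only. The labels do not spell out DSCG or blank, do not say what pre and post refer to, and give no dose, wound age, mouse age or sex.

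Sensory nerve endings in skin release substance P and calcitonin gene-related peptide (CGRP), which dilate vessels, raise their permeability and act on mast cells, keratinocytes and leukocytes. The messenger RNAs for these peptides are made mainly in neuron cell bodies, which lie in ganglia outside the skin, while the receptors are made by the responding cells in the tissue. Peptidases at the cell surface, neprilysin among them, end the signal by cutting the peptides.

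The sum of gene counts was 37702643 to 50461867 in 11 libraries and 3835042 in blank replicate 3. A gene with 0 counts could still be present at up to 0.786 CPM (counts scaled to a library total of 1000000) in that library and at up to 0.0588 to 0.0852 CPM in the others, taking 3 counts as the limit that a count of 0 allows; these limits, and the Poisson intervals below, cover counting error only. Long genes were low in 3 libraries, namely replicate 2 of pre-MCS-01, replicate 2 of DSCG and the shallow blank library: Spearman's rho between exon length and a gene's deviation from its mean over libraries was -0.385 to -0.320 there and -0.0559 to 0.337 in the other 9. Skin was well represented, with the basal keratin gene Krt5 at 4977 to 8525 CPM and the collagen gene Col1a1 at 4528 to 30874 CPM. CPM values are scaled for library composition by TMM (trimmed mean of M values). In whole tissue, fewer cells of a type and less RNA per cell cannot be told apart.

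The 8 genes spanned a wide range of abundance. Per kilobase of exon, the mean level over the 12 libraries was 6.00 CPM for Ramp1, 1.76 for Calcrl, 0.924 for Npy1r, 0.678 for Mme, 0.637 for Crhr1 and 0.592 for Tacr1, against 0.101 for Calca and 0.00970 for Tac1. By these means the receptors and the enzyme were measurable, whereas both peptide precursors lay near the limit of detection. Crhr1 also lay near that limit within 1 group, with 1, 1 and 8 counts in post-MCS-01 wounds. The filter on low counts was passed by 6 of the 8 genes, and Tac1 and Calca did not pass it.

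**Figure D1:**
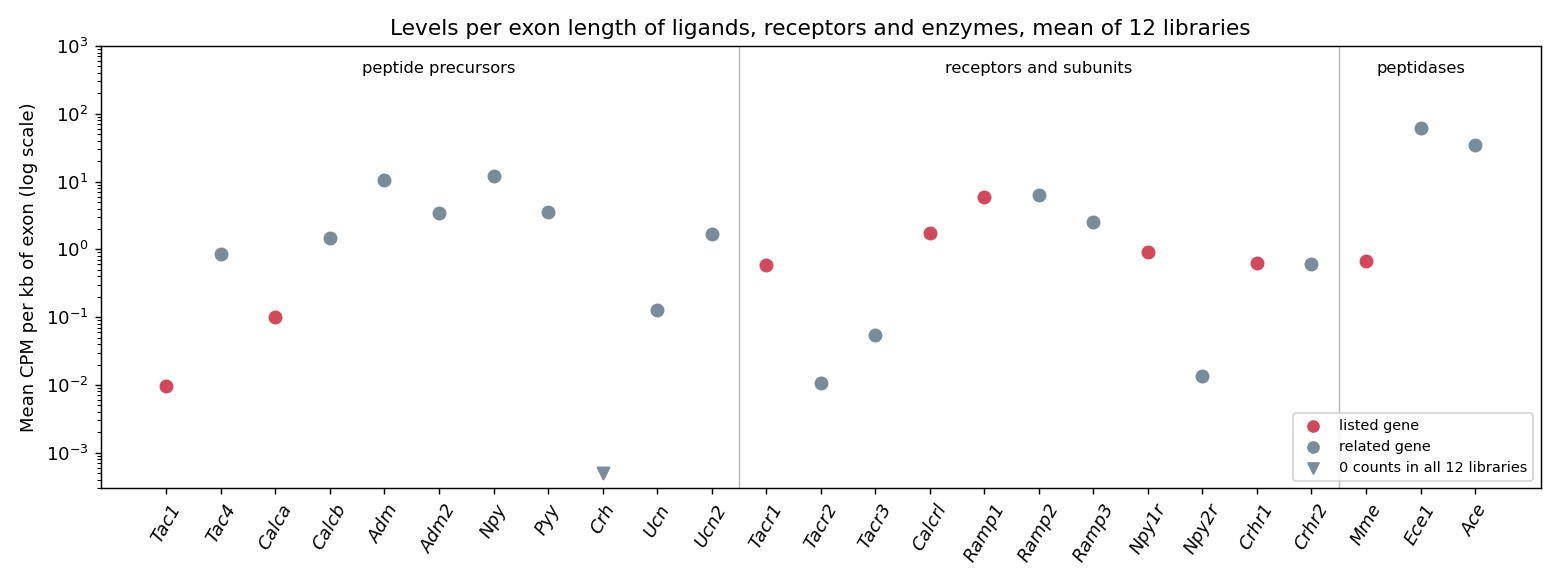
Mean level per kilobase of exon over the 12 libraries (log scale, CPM per kb) of the 8 listed genes (red) and of related precursors, receptors and peptidases (grey). Tac1 (0.00970) and Calca (0.101) sit below the 6 other listed genes (0.592 to 6.00), and Crh, drawn as a triangle on the lower edge, had 0 counts in all 12 libraries.

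Tac1 (chr6:7554879-7565834, + strand, GRCm38) encodes the precursor of substance P and neurokinin A. It had 0, 2 and 1 counts in pre-MCS-01 wounds, 1, 0 and 3 in post-MCS-01 wounds, 2, 6 and 0 in DSCG wounds, and 2, 0 and 0 in blank wounds. As CPM these were 0, 0.0568 and 0.0230 in pre-MCS-01, 0.0252, 0 and 0.0688 in post-MCS-01, 0.0507, 0.132 and 0 in DSCG, and 0.0392, 0 and 0 in blank. The 17 counts of all 12 libraries were spread over every group, 5 libraries had none, and the groups overlapped. Pooled over a group, the level was 0.0252 CPM in pre-MCS-01 (95% exact Poisson interval 0.00520 to 0.0737), 0.0320 in post-MCS-01 (0.00872 to 0.0820), 0.0605 in DSCG (0.0261 to 0.119) and 0.0194 in blank (0.00235 to 0.0702). The widest contrast with blank was that of DSCG, with 8 against 2 counts, a ratio of 3.11 whose counting interval ran from 0.621 to 30.1. A difference in Tac1 was thus not detectable at this depth.

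Calca (chr7:114631478-114636357, - strand) encodes calcitonin and, through alternative splicing, alpha-CGRP, and counts per gene cannot separate the 2 products. It had 7, 3 and 3 counts in pre-MCS-01 wounds, 8, 7 and 12 in post-MCS-01 wounds, 6, 9 and 3 in DSCG wounds, and 5, 2 and 2 in blank wounds. As CPM these were 0.174, 0.0852 and 0.0690 in pre-MCS-01, 0.202, 0.168 and 0.275 in post-MCS-01, 0.152, 0.198 and 0.0635 in DSCG, and 0.0980, 0.0416 and 0.524 in blank. The highest of these CPM values, in blank replicate 3, rests on 2 counts in the shallow library, and all groups overlapped with their neighbours in the order of means. The summed counts of post-MCS-01 and blank, 27 and 9, gave a ratio of 2.47 (counting interval 1.13 to 5.97), which leaves out the spread between mice. The mean CPM over libraries did not show that ratio, at 0.215 in post-MCS-01 and 0.221 in blank. Without the filter on low counts, edgeR's quasi-likelihood test gave adjusted p of at least 0.743 for Tac1 and Calca in every comparison of groups. Calca and Calcb, its neighbour in the family, have similar CGRP exons, and how reads that match both were counted was not tested.

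Tacr1 (chr6:82402334-82560104, + strand) encodes the neurokinin 1 receptor, the main receptor for substance P. It had 82, 60 and 182 counts in pre-MCS-01 wounds, 211, 128 and 276 in post-MCS-01 wounds, 119, 144 and 179 in DSCG wounds, and 253, 283 and 10 in blank wounds. The levels were 2.04, 1.70 and 4.19 CPM in pre-MCS-01, 5.32, 3.07 and 6.33 in post-MCS-01, 3.01, 3.16 and 3.79 in DSCG, and 4.96, 5.88 and 2.62 in blank. All groups overlapped, and the lowest libraries of pre-MCS-01 and of blank were those short of long transcripts. The contrast with the smallest unadjusted p was pre-MCS-01 against post-MCS-01, with means of 2.64 ± 1.35 and 4.91 ± 1.67 CPM (SD, n = 3 each). Its fitted log2 fold change was -0.89 ± 0.41 (SE) and its adjusted p in edgeR's quasi-likelihood test was 0.489. The other 5 contrasts gave log2 fold changes of -0.81 to 0.56 with adjusted p of at least 0.649 in the same fit.

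Calcrl (chr2:84330626-84425411, - strand) encodes the calcitonin receptor-like receptor, which binds CGRP when paired with the subunit RAMP1 and adrenomedullin when paired with RAMP2 or RAMP3. It had 242, 121 and 428 counts in pre-MCS-01 wounds, 479, 463 and 433 in post-MCS-01 wounds, 322, 150 and 344 in DSCG wounds, and 660, 562 and 27 in blank wounds. The levels were 6.02, 3.44 and 9.85 CPM in pre-MCS-01, 12.1, 11.1 and 9.94 in post-MCS-01, 8.16, 3.30 and 7.28 in DSCG, and 12.9, 11.7 and 7.07 in blank. The 3 post-MCS-01 libraries were close together and lay above all pre-MCS-01 and all DSCG libraries, but within the range of blank. Calcrl was lowest in each of the other 3 groups in the library short of long transcripts. Against DSCG, post-MCS-01 wounds averaged 11.0 ± 1.07 and DSCG wounds 6.24 ± 2.59 CPM (SD, n = 3 each), a log2 fold change of 0.82 ± 0.41 (SE) with an adjusted p of 0.490 in edgeR's test. Without the 3 length-biased libraries that value was 0.51 ± 0.24, with an adjusted p of 0.568. The other 5 contrasts gave log2 fold changes of -0.78 to 0.04 and adjusted p of at least 0.557 by edgeR.

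Ramp1 (chr1:91179822-91225196, + strand) encodes the partner that gives Calcrl its CGRP specificity, and it was the most abundant of the 8 genes. It had 653, 794 and 592 counts in pre-MCS-01 wounds, 898, 333 and 759 in post-MCS-01 wounds, 836, 754 and 852 in DSCG wounds, and 748, 1271 and 78 in blank wounds. The levels were 16.2, 22.6 and 13.6 CPM in pre-MCS-01, 22.6, 7.99 and 17.4 in post-MCS-01, 21.2, 16.6 and 18.0 in DSCG, and 14.7, 26.4 and 20.4 in blank. Ramp1 was present in every library, the groups overlapped throughout, and post-MCS-01 replicate 2 was the lowest. The contrast with the smallest unadjusted p was post-MCS-01 against blank, with 16.0 ± 7.42 and 20.5 ± 5.88 CPM (SD, n = 3 each), a log2 fold change of -0.36 ± 0.36 (SE) and an adjusted p of 0.872 by edgeR. The other 5 lay between -0.23 and 0.13 on the log2 scale, with adjusted p of at least 0.843 by edgeR. Per kilobase of exon, Calcrl was below Ramp1 in all 12 libraries, with ratios of 0.0943 in pre-MCS-01 replicate 2 to 0.861 in post-MCS-01 replicate 2. The lowest ratio is from a library short of long transcripts, and Calcrl has the longer exon length, 4882 against 3022 bases. The highest is from the library with the least Ramp1.

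Npy1r (chr8:66697192-66706792, + strand) encodes the Y1 receptor for neuropeptide Y, a peptide of sympathetic nerves that constricts vessels. It had 123, 53 and 110 counts in pre-MCS-01 wounds, 168, 135 and 165 in post-MCS-01 wounds, 158, 117 and 107 in DSCG wounds, and 148, 281 and 9 in blank wounds. The levels were 3.06, 1.51 and 2.53 CPM in pre-MCS-01, 4.23, 3.24 and 3.79 in post-MCS-01, 4.00, 2.57 and 2.27 in DSCG, and 2.90, 5.84 and 2.36 in blank. All 3 post-MCS-01 libraries were above the 3 pre-MCS-01 libraries, while blank overlapped with both. Against blank, pre-MCS-01 wounds averaged 2.36 ± 0.789 and blank wounds 3.70 ± 1.87 CPM (SD, n = 3 each). The log2 fold change was -0.69 ± 0.39 (SE), the contrast of smallest unadjusted p for this gene, and the adjusted p by edgeR was 0.721. The other 5 contrasts gave -0.66 to 0.35 with adjusted p of at least 0.600 by edgeR.

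Mme (chr3:63241537-63386030, + strand) encodes neprilysin, the metallopeptidase that degrades substance P, CGRP and other small peptides. It had 245, 211 and 391 counts in pre-MCS-01 wounds, 370, 203 and 311 in post-MCS-01 wounds, 307, 203 and 517 in DSCG wounds, and 469, 742 and 14 in blank wounds. The levels were 6.09, 5.99 and 9.00 CPM in pre-MCS-01, 9.32, 4.87 and 7.14 in post-MCS-01, 7.78, 4.46 and 10.9 in DSCG, and 9.19, 15.4 and 3.67 in blank. Blank held both the highest and the lowest library, so every other group lay inside its range. With 7.03 ± 1.71 CPM in pre-MCS-01 and 9.43 ± 5.88 in blank (SD, n = 3 each), the log2 fold change was -0.47 ± 0.46 (SE) and the adjusted p 0.812 by edgeR. That contrast, of smallest unadjusted p for Mme, was 0.027 without blank replicate 2. The other 5 gave -0.46 to -0.02 with adjusted p of at least 0.878 by edgeR.

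**Figure D2:**
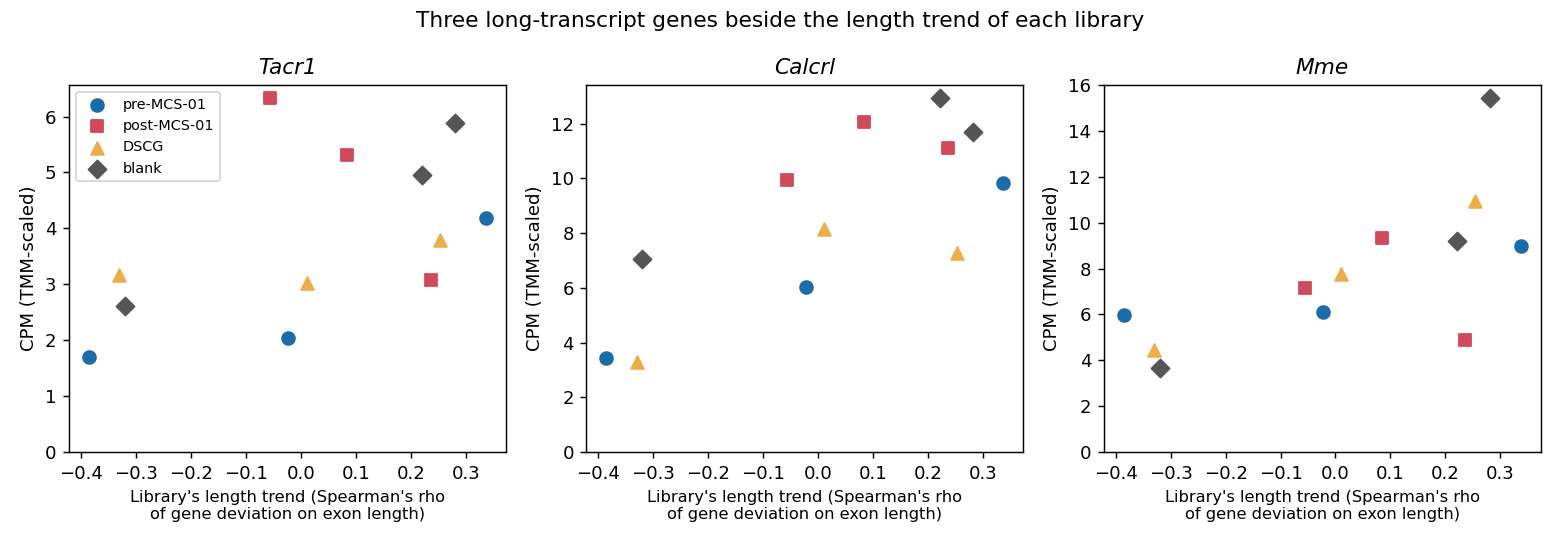
CPM of Tacr1, Calcrl and Mme, the 3 listed genes with the longest exon length, in each library against that library's length trend (Spearman's rho between a gene's deviation and its exon length, negative where long genes are low). The 3 libraries at -0.385 to -0.320 hold the lowest Calcrl and Mme level of their group, and the lowest Tacr1 level of pre-MCS-01 and of blank but not of DSCG.

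Crhr1 (chr11:104132855-104175523, + strand) encodes a receptor for corticotropin-releasing hormone and urocortin, best known for the pituitary stress response and also present in hair follicles and other skin cells. It had 98, 106 and 70 counts in pre-MCS-01 wounds, 1, 1 and 8 in post-MCS-01 wounds, 8, 128 and 197 in DSCG wounds, and 117, 22 and 6 in blank wounds. The levels were 2.44, 3.01 and 1.61 CPM in pre-MCS-01, 0.0252, 0.0240 and 0.184 in post-MCS-01, 0.203, 2.81 and 4.17 in DSCG, and 2.29, 0.457 and 1.57 in blank. The 3 post-MCS-01 libraries were the lowest of the 12, below every library of the other groups. DSCG replicate 1 was only just above them, far from its 2 group mates. Post-MCS-01 held 10 counts in all, near the limit of detection, so folds against it rest on few counts.

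Of the 8 genes, Crhr1 had the widest differences between groups. Group means were 2.35 ± 0.704 CPM in pre-MCS-01, 0.0776 ± 0.0918 in post-MCS-01, 2.40 ± 2.02 in DSCG and 1.44 ± 0.925 in blank (SD, n = 3 each). The contrast of smallest unadjusted p was post-MCS-01 against DSCG, with a log2 fold change of -4.87 ± 1.10 (SE), or 29.3-fold. Its adjusted p was 0.0713 in edgeR's quasi-likelihood test, short of the threshold of 0.05. In a fit of those 2 groups alone Crhr1 failed the filter on low counts. That contrast was tested here only because the filter took in all 12 libraries. The remaining contrasts of post-MCS-01, added after the values were seen, were 4.84 ± 1.10 for pre-MCS-01 against post-MCS-01 (adjusted p = 0.0826) and -4.11 ± 1.12 for post-MCS-01 against blank (adjusted p = 0.197). The contrasts without post-MCS-01 lay between -0.03 and 0.76, with adjusted p of at least 0.845 by edgeR. The joint edgeR test of the 4 groups gave F = 7.04, with an adjusted p of 0.281.

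The call on Crhr1 depended on the method and on DSCG replicate 1. DESeq2 put it past the threshold, with adjusted p of 4.66e-05 for post-MCS-01 against DSCG, 7.16e-05 for pre-MCS-01 against post-MCS-01 and 0.00250 for post-MCS-01 against blank. In a fit of pre-MCS-01 and post-MCS-01 alone, edgeR gave an adjusted p of 0.0229. There Crhr1 passed the filter on low counts only through the pre-MCS-01 libraries, where it was high, so that p is not separate support. Without DSCG replicate 1, post-MCS-01 against DSCG was -5.41 with an adjusted p of 0.00462 by edgeR, and the joint test had an adjusted p of 0.0301. Over all the alternatives that could be fitted, the log2 fold change kept its sign and ranged from -6.42 to -4.17 for post-MCS-01 against DSCG, from 4.36 to 6.38 for pre-MCS-01 against post-MCS-01 and from -5.69 to -3.26 for post-MCS-01 against blank. Without the 3 length-biased libraries these contrasts were -4.73, 4.60 and -4.05, with adjusted p of 0.321, 0.509 and 0.407 by edgeR.

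Hair follicle genes moved with Crhr1. The summed level of a list of 12, all of which were detected, was 12798, 30102 and 12468 CPM for pre-MCS-01, 118, 86.6 and 103 for post-MCS-01, 1981, 30857 and 39971 in DSCG, and 19507, 6608 and 7282 in blank. The 4 libraries with the lowest sums, the 3 of post-MCS-01 and DSCG replicate 1, were the 4 with the least Crhr1. In pre-MCS-01 against post-MCS-01 wounds all 12 had a positive log2 fold change, and 9 passed an adjusted p of 0.05 by edgeR (Dsg4, Krt25, Krt27, Krt31, Krt35, Krt71, Krt85, Padi3 and Tchh), with log2 fold changes of 6.95 to 10.2. In post-MCS-01 against DSCG wounds, all 12 had a negative one, and those 9 together with Hoxc13 and Msx2 passed, with log2 values between -10.4 and -3.72. None of the 12 passed in the 3 pairs with blank or in pre-MCS-01 against DSCG. These genes build the hair shaft and inner root sheath or control its growth. Their part in the Crhr1 result was not tested. Those calls were fragile, since leaving out any library of post-MCS-01 left 0 genes of the whole table past the threshold in either contrast, as did leaving out pre-MCS-01 replicate 2 for the pair of MCS-01 groups and DSCG replicate 2 or 3 for post-MCS-01 against DSCG.

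**Figure D3:**
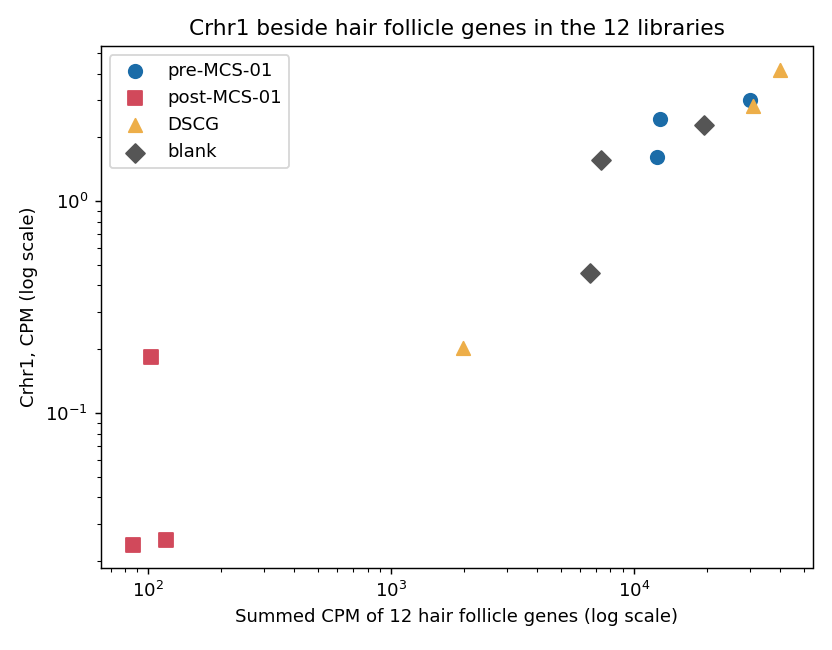
Crhr1 level (CPM) against the summed level of 12 hair follicle genes (CPM) in each of the 12 libraries, both axes on a log scale. The 3 post-MCS-01 libraries sit at the lower left (0.0240 to 0.184 CPM of Crhr1), with DSCG replicate 1 (0.203 CPM) next and the other 8 libraries at the upper right.

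The genes whose level followed Crhr1 most closely over the 12 libraries, by Pearson's r of log2 CPM among 13420 candidates, were Foxe1 (0.971), Tagln3 (0.967) and Ccdc155 (0.964). Foxe1, a forkhead transcription factor gene active in hair follicles, had 31.0, 76.7 and 18.3 CPM in pre-MCS-01, 0.479, 0.168 and 0.987 in post-MCS-01, 4.26, 81.3 and 73.5 in DSCG, and 41.2, 11.1 and 15.7 in blank. It had the same 4 lowest libraries as Crhr1. Such an r can also reflect differences between the libraries in depth, length trend and tissue composition, and the genes were picked for it.

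To show the start region of the member with the widest difference beside that of a gene with a like pattern, the 250 bases before the RefSeq start of Crhr1 (chr11:104132531-104132780, + strand) and of Tagln3 (chr16:45724532-45724781, - strand) are given 5' to 3', from RefSeq on GRCm38.p6.
Crhr1: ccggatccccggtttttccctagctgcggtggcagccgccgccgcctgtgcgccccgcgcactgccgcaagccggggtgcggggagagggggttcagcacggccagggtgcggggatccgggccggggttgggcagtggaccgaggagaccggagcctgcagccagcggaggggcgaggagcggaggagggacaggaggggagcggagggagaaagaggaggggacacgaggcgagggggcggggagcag
Tagln3: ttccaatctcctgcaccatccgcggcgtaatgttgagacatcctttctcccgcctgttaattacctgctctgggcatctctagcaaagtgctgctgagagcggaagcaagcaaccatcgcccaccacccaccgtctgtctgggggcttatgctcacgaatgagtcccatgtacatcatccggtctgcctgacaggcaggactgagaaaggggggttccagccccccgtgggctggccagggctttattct
Capitals were kept for matches, on either strand, to the LEF/TCF core CTTTGA, bound by factors of Wnt signalling, and to the E-box CANNTG, and no match was found in either window. The LEF/TCF core occurred in 13.8% and the E-box in 66.2% of 32851 promoter windows of that length, so these letters are missing from many promoters. The Crhr1 window was 74.8% G and C, above 95.8% of all windows, against 57.2% for Tagln3 and a median of 52.4%.

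Tested over all 16267 genes that passed the filter, 0 of the 6 tested members passed an adjusted p of 0.05 in any of the 6 pairs of groups or in the joint test by edgeR's quasi-likelihood test. The share of all tested genes past that threshold was 0% for pre-MCS-01 against blank, post-MCS-01 against blank, DSCG against blank, pre-MCS-01 against DSCG and the joint test. It was 0.824% (134 genes) for pre-MCS-01 against post-MCS-01 and 1.06% (172 genes) for post-MCS-01 against DSCG. At an unadjusted p under 0.05 the members called were Crhr1 alone in post-MCS-01 against blank (background 9.35%), pre-MCS-01 against post-MCS-01 (10.2%), post-MCS-01 against DSCG (11.3%) and the joint test (8.42%), and none in pre-MCS-01 against blank (7.24%), DSCG against blank (1.03%) or pre-MCS-01 against DSCG (2.36%). DESeq2 called 1 member, Crhr1, in the 3 pairs with post-MCS-01 and in the joint test, and limma-voom called 0 in every comparison.

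Groups did not overlap for Crhr1 in post-MCS-01 against blank, against 18.4% of all tested genes, for Calcrl, Npy1r and Crhr1 in pre-MCS-01 against post-MCS-01, against 17.7%, and for Calcrl and Crhr1 in post-MCS-01 against DSCG, against 15.4%. There was no such member in pre-MCS-01 against blank (14.4%), DSCG against blank (3.68%) or pre-MCS-01 against DSCG (5.12%). For a single gene, an exact permutation test of 3 against 3 libraries cannot give a two-sided p below 0.1. The median log2 fold change of the 6 tested members was -0.58 in pre-MCS-01 against blank, -0.19 in post-MCS-01 against blank and -0.36 in DSCG against blank, where that of all tested genes was 0.04, -0.0064 and -0.0016. It was -0.34 in pre-MCS-01 against post-MCS-01, -0.11 in pre-MCS-01 against DSCG and 0.11 in post-MCS-01 against DSCG, where that of all tested genes was 0.03, 0.03 and -0.0063. The contrasts with blank share its 3 libraries. In the order of group means, neighbouring groups overlapped for all 8 genes, except blank and post-MCS-01 for Crhr1.

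**Figure D4:**
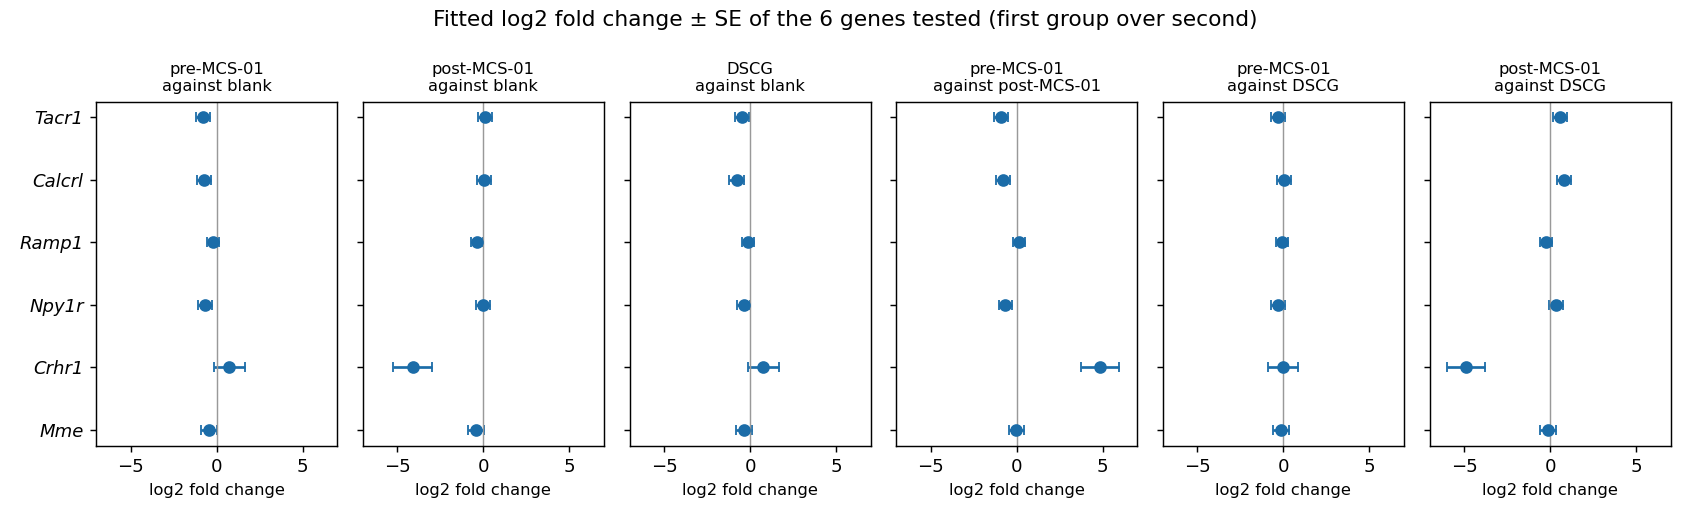
Fitted log2 fold change with its standard error for the 6 tested genes in each pair of groups, the group named first over the group named second. Only the Crhr1 estimates of the 3 pairs with post-MCS-01 stand away from the rest, at -4.11, 4.84 and -4.87; none passed an adjusted p of 0.05.

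**Figure D5:**
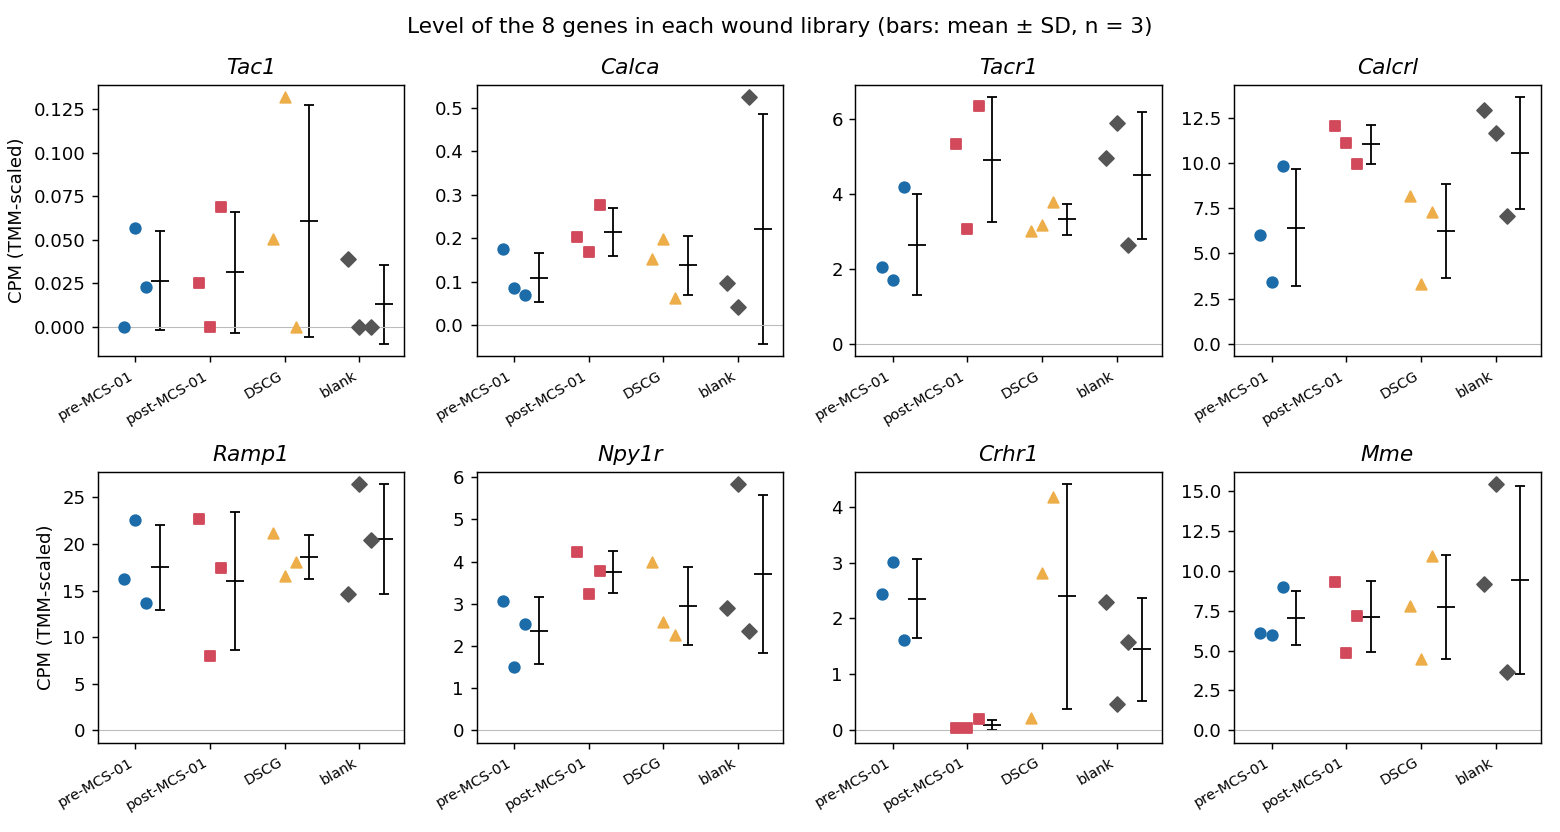
CPM of each of the 8 genes in every library, with the mean and SD of each group (n = 3) drawn beside its points and each panel on its own linear axis. Crhr1 lies between 0.0240 and 0.184 in post-MCS-01, under all other libraries, whereas the other 7 genes overlap between most groups.

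The wider peptide system was read from lists of related genes. Of 26 other precursors 14 passed the filter, of 31 other receptors and subunits 15, of 10 other peptidases 10, and of 9 genes for peptide processing and secretory granules 8; 0 of these passed an adjusted p of 0.05 by edgeR in any pair of groups. The precursors with the highest mean CPM, not scaled for length, were Adm (adrenomedullin, 17.0 CPM), Penk (enkephalins, 14.7), Npy (neuropeptide Y, 6.75) and Nppb (a natriuretic peptide, 5.86). Npy, the ligand of the Y1 receptor, had 1.79, 7.33 and 1.70 CPM in pre-MCS-01, 8.21, 0.336 and 1.45 in post-MCS-01, 0.760, 8.66 and 8.93 in DSCG, and 8.80, 22.6 and 10.5 in blank. Every blank library held more Npy than the 6 MCS-01 libraries. Ranges did not overlap for 14.4% of all tested genes in pre-MCS-01 against blank and 18.4% in post-MCS-01 against blank. For Npy, post-MCS-01 against blank gave a log2 fold change of -2.08 ± 1.09 with an adjusted p of 0.603 by edgeR.

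In the tachykinin and CGRP families the listed precursor was not the most abundant gene. Per kilobase of exon, Tac4, the hemokinin precursor, averaged 0.840 CPM, against 0.00970 for Tac1. Calcb, which encodes beta-CGRP, averaged 1.49, against 0.101 for Calca. Crh, the ligand that names Crhr1, had 0 counts in all 12 libraries, whereas its relative Ucn2, a ligand of Crhr2, averaged 1.68 and Ucn, a ligand of both receptors, 0.128. Among these ligands Tac4, Calcb and Ucn2 were tested, and none passed the threshold by edgeR in any pair of groups. Tac1, Calca, Crh and Ucn failed the filter on low counts and were not tested in that fit.

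Among receptors, Ramp2 (21.0 CPM), which turns Calcrl into an adrenomedullin receptor, was about as abundant as Ramp1 per kilobase of exon, at 6.35 against 6.00. Adcyap1r1, the receptor of the peptide PACAP, averaged 14.0 CPM, Vipr1, a receptor of vasoactive intestinal peptide, 4.61, and Mc1r, the melanocortin receptor of pigment cells, 4.52. Mc1r had 4.40, 20.4 and 5.64 CPM in pre-MCS-01, against 0.932, 0.192 and 1.08 in post-MCS-01, a log2 fold change of 3.78 ± 0.84 with an adjusted p of 0.0739 by edgeR. Adcyap1r1 had 7.28, 4.29 and 4.88 CPM in pre-MCS-01, against 23.9, 14.2 and 20.0 in post-MCS-01, a log2 fold change of -1.82 ± 0.46 with an adjusted p of 0.125 by edgeR. Neither pair of ranges overlapped, which held for 17.7% of all tested genes in that contrast, and neither gene passed the threshold. In DSCG and blank wounds, Mc1r had 2.41, 2.72 and 7.83 CPM and 3.92, 1.10 and 3.67 CPM. Adcyap1r1 had 15.3, 8.77 and 12.3 CPM in DSCG and 11.4, 35.2 and 10.2 in blank. Crhr2, the relative of Crhr1, averaged 2.78 CPM in pre-MCS-01, 3.96 in post-MCS-01, 2.07 in DSCG and 3.42 in blank, so it did not share the low post-MCS-01 level.

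The 4 other peptidases with the highest mean CPM all lay above Mme per kilobase of exon. Ide (insulin-degrading enzyme) averaged 534 CPM, Ece1 (endothelin-converting enzyme) 326, Ace (angiotensin-converting enzyme) 185 and Thop1 (thimet oligopeptidase) 167. Per kilobase of exon their levels were 71.1, 61.5, 34.9 and 32.9 CPM, against 0.678 for Mme. Among processing genes, Cpe (carboxypeptidase E) averaged 287 CPM, Pam (the amidating enzyme) 117, Chga (chromogranin A) 5.49 and Scg3 (secretogranin 3) 1.08.

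Cell type markers were read beside the members. Of 14 sensory neuron genes 7 passed the filter, and of its 4 ion channel genes 3 were almost absent, with 3 counts of Scn9a, 11 of Scn10a and 1 of Trpa1 over all 12 libraries. The fourth, Trpv1, had 273 counts and averaged 0.249 CPM in pre-MCS-01, 0.167 in post-MCS-01, 0.867 in DSCG and 0.862 in blank, with adjusted p of at least 0.178 by edgeR in every pair. The summed level of that list was 51.8 to 99.6 CPM in pre-MCS-01, 35.0 to 44.3 in post-MCS-01, 36.3 to 164 in DSCG and 32.5 to 58.6 in blank. Most of it on average was Tubb3, the tubulin gene on the list, at 47.5 CPM over all libraries. Tubb3 averaged 59.8 CPM in pre-MCS-01, 19.9 in post-MCS-01, 76.7 in DSCG and 33.5 in blank. In pre-MCS-01 against post-MCS-01, 4 of the 7 tested genes had a positive log2 fold change. Uchl1 (2.64 and 5.88 CPM) and Gap43 (1.76 and 4.17) were among those lower in pre-MCS-01.

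Vessels express Calcrl, and 10 endothelial genes, all tested, summed to 123 to 342 CPM in pre-MCS-01, 235 to 440 in post-MCS-01, 288 to 455 in DSCG and 231 to 451 in blank; 0 passed the threshold. Mast cell genes, a list of 10 that were all tested, summed to 177 to 311 CPM in pre-MCS-01, 215 to 347 in post-MCS-01, 141 to 274 in DSCG and 182 to 258 in blank, also with 0 past the threshold. They include Mrgprb2, the mouse mast cell receptor for substance P, which averaged 0.702 CPM in pre-MCS-01, 0.844 in post-MCS-01, 0.812 in DSCG and 1.26 in blank. Their sum also holds Hdc, which averaged 78.4 CPM in pre-MCS-01, 103 in post-MCS-01, 20.1 in DSCG and 18.8 in blank. The mast cell protease genes did not share that pattern. In the same order, Cma1 averaged 29.5, 39.7, 37.9 and 38.3 CPM and Mcpt4 51.6, 63.9, 64.8 and 62.9. The part of these cell types in the levels of Calcrl, Tacr1, Npy1r and Mme was not tested.

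The genes most like the other members over the 12 libraries were Flt4 (Pearson's r 0.960), Layn and Cers2 for Tacr1, and Mctp1 (0.973), Serinc1 and Pcdhga10 for Calcrl. Flt4, the growth factor receptor of lymphatic vessels, has an exon length of 8232 bases and, like Tacr1, was lowest in pre-MCS-01 replicate 2, at 2.93 CPM. For Ramp1 they were Bcat2 (0.893), Adig and Maf1, for Npy1r Snapin (0.932), Ticam2 and Atp2a3, and for Mme Rassf3 (0.966), Itga8 and Snap91. Each r is the highest of 13420 and describes these 12 libraries, which differ in their length trend.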

How the data were processed

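Wounds were frozen, and libraries were built from their total RNA (TruSeq RNA kit), per the labels' protocols. The submitters' processing notes name FastQC, TopHat2, Bowtie2, HTSeq, limma and the build mm10; versions, settings and annotation are not given in the sources used here. The deposited files hold raw counts per gene symbol for each library, made by the authors. The 5 summary lines that name no gene, 22.9% to 29.3% of a library's reads, stayed out of library sizes and tests. Replicate libraries differed well beyond sampling noise (chi-square per degree of freedom 66.5 to 505), so none was merged. No listed gene overlaps another gene in GENCODE M21 (GRCm38), the source of coordinates and exon lengths; the kit does not mark strand.

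Counts were tested with edgeR 4.0.16 in R 4.3.3: filterByExpr, TMM scaling, 1 quasi-likelihood model (legacy=TRUE) with group means over the 12 libraries, two-sided contrasts, and Benjamini-Hochberg adjustment over 16267 genes. A standard error is the log2 fold change divided by the square root of F. The script was tested on simulated data. The mice are separate animals by their labels, with replicates numbered in accession order. Alternatives were RLE scaling, total counts, no filter, DESeq2 1.42.0, limma-voom (limma 3.58.1), legacy=FALSE, fits of the pair of groups alone, and libraries left out. Every listed gene is named, with statistics for its contrast of smallest unadjusted p; other contrasts are given as ranges. For genes of at least 1 CPM the 3 most correlated genes (log2 CPM, prior count 2, predicted genes left out) are named, as are the 4 most abundant genes of each pathway list and every listed gene past the threshold. The result of 1 gene of the sensory neuron list is not reported here. The macrophage list, with 7 of 8 symbols found, and the Schwann cell, fibroblast, keratinocyte, neutrophil, adipocyte and skeletal muscle lists had 0 genes past the threshold in every pair. Members, lists and tests were chosen with earlier results of these data known.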

Additional observations from a re-analysis of the deposited data

How the results depend on the processing

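The 3 libraries a group limit every statement, and blank replicate 3, at 3835042 counts, limits low genes. No member other than Crhr1 passed the threshold under any alternative. Member counts of 0 became 1 (Crhr1) with DESeq2 for post-MCS-01 against blank, pre-MCS-01 against post-MCS-01, post-MCS-01 against DSCG and the joint test, 1 with the fit of pre-MCS-01 and post-MCS-01 alone, and 1 without DSCG replicate 1 for post-MCS-01 against DSCG and the joint test. Crhr1 could not be tested in the fit of post-MCS-01 and DSCG alone, where it failed the filter. In the fit of pre-MCS-01 and post-MCS-01 alone, Crhr1 passed the filter only through the pre-MCS-01 libraries. Among the contrasts of members, and of listed genes past the threshold, given with their own statistics, 1 changed sign. It was Mme, pre-MCS-01 against blank, whose log2 fold change was -0.81 to 0.027 with 1 library left out (0.027 without blank replicate 2). The contrasts given for Npy, Mc1r and Adcyap1r1 were not followed through the alternatives. Contrasts given only as ranges, none past the threshold, changed sign more often, among them Ramp1 in pre-MCS-01 against post-MCS-01 (-0.26 to 0.40) and Calcrl in post-MCS-01 against blank (-0.16 to 0.21). Counts over all genes moved more. DESeq2 called 69 genes for pre-MCS-01 against blank, 409 for post-MCS-01 against blank, 428 for pre-MCS-01 against post-MCS-01, 17 for pre-MCS-01 against DSCG, 620 for post-MCS-01 against DSCG and 568 jointly. Fits of the pair alone called 2 for pre-MCS-01 against blank, 255 for post-MCS-01 against blank and 0 for post-MCS-01 against DSCG. For post-MCS-01 against blank, 37 passed with no filter and 63 with legacy=FALSE, which gave 2 jointly. Limma-voom called 1 for pre-MCS-01 against post-MCS-01 and 2 for post-MCS-01 against DSCG, and leaving out the 3 length-biased libraries gave 0 for both. Leaving out 1 library gave 0 to 131 for pre-MCS-01 against post-MCS-01, 0 to 606 for post-MCS-01 against DSCG and, without DSCG replicate 1, 273 jointly. The cause was not tested. Total counts in place of TMM moved the median log2 fold change of all genes by -0.10 in pre-MCS-01 against post-MCS-01. No paired analysis was possible because replicate numbers follow accession order and pair no mice.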

Other observations

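Calcrl was also set beside Pecam1, a pan-endothelial gene, in each library, a ratio chosen after the values were seen. Calcrl per unit of Pecam1 was 0.141, 0.195 and 0.152 in pre-MCS-01, 0.177, 0.248 and 0.113 in post-MCS-01, 0.103, 0.0637 and 0.125 in DSCG, and 0.156, 0.177 and 0.214 in blank. All 3 DSCG libraries were below the 3 blank libraries, a separation for which 3 against 3 libraries allow no exact two-sided permutation p below 0.1, and the lowest was the DSCG library short of long transcripts. Calcrl alone overlapped between DSCG (up to 8.16 CPM) and blank (down to 7.07 CPM). The share of all genes that separate in this way over Pecam1 was not computed, nor was the ratio of Calcrl to the other listed endothelial genes. The separation therefore has no background to be read against and is no result about Calcrl.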
